A study of Homo sapiens with 15 samples.

Results

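The comparison of HK-2 cells exposed to TGF-beta (TGFb) for 12 h with HK-2 cells exposed to it for 1 h rests on 6 of the 15 libraries of the series, 3 in each group. HK-2 is an immortalised human cell line of renal proximal tubule origin, wild type per the labels, grown in DMEM/F12 medium with fetal bovine serum and antibiotics. Both groups received TGFb at 2 ug/ml together with DMSO, the vehicle of the inhibitor used elsewhere in the series, and they are called 12 h and 1 h. Another pair of groups received the same TGFb with FT895, an inhibitor of the deacetylase HDAC11, for 12 h or 1 h, at a dose that the sources used here do not give. A mock group received PBS and is labelled 0 h. Polyadenylated RNA was sequenced, and the deposited values are FPKM (fragments scaled to transcript length and to the mapped fragments of the library). Of 24880 loci in the table, 12467 reached 1 FPKM in at least 3 of the 15 libraries and were tested.

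TGFb binds receptor kinases that phosphorylate SMAD2 and SMAD3, which enter the nucleus with SMAD4 and switch genes on or off. The first targets include brakes on the pathway itself and short-lived transcription factors, and later targets include the extracellular matrix, its crosslinking enzymes and the actin cytoskeleton. In tubule cells this programme is studied as a part of renal fibrosis. Length of TGFb exposure, time in culture and time in DMSO differ together between the groups and cannot be told apart. Mock received PBS and is labelled 0 h, so TGFb, vehicle and time differ together between it and either group. Levels set beside mock do not separate them.

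Changes are differences on the log2(FPKM + 1) scale, 12 h minus 1 h, given with the standard error (SE) from limma. Genes are called where the p adjusted by Benjamini and Hochberg over all 12467 genes is under 0.05, and "rose" and "fell" are used for called genes. Whether a group's 3 libraries are separate cultures is not in the labels. The p-values therefore reflect no more than library-to-library spread, which may be technical. Levels are given for replicates 1, 2 and 3 in that order, and mock levels as mean ± SD (n = 3).

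Over all 15 libraries, summed FPKM was 386532 to 434520, and 11712 to 12023 loci stood at 1 FPKM or more. The highest sum was that of TGFb 1 h replicate 1. FPKM is scaled within each library, so these sums do not measure library size. On the first principal component (55.3% of variance) the signs separated 12 h from earlier times, with every 12 h library, with or without FT895, on one side and every 1 h and mock library on the other. One library differed from the rest of its group, TGFb 1 h replicate 1. Its score on the second component was -25.0, against -3.36 and -6.39 in replicates 2 and 3, and ribosomal protein transcripts made up 13.1% of its summed FPKM, against 8.90 to 10.3% in the other 14 libraries. Against the other 2 libraries of its group, its median gene was 0.33 higher (log2) among the shortest of 10 length groups and 0.29 lower among the longest.

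Most markers of other cell types stayed under the filter. It was passed by 4 of 15 fibroblast and pericyte genes, 2 of 13 endothelial genes, 3 of 14 leukocyte genes and 3 of 16 distal nephron and podocyte genes. Listed at 0 in all 15 libraries were 1, 3, 6 and 6 genes of these lists, among them PDGFRA, VWF, KDR, CD3E and UMOD. The fibroblast and pericyte list still summed to 109 to 113 FPKM at 12 h and 113 to 134 FPKM at 1 h. The leukocyte list summed to 71.4 to 81.6 FPKM at 12 h and 80.3 to 87.8 FPKM at 1 h. The cells' own label was borne out only in part. Of 42 proximal tubule and nephric genes in the table, 16 were tested and 10 were listed at 0 throughout, among them the endocytic receptor gene LRP2. The epithelial cadherin CDH1 and the tubular factor KLF15 were listed at 0 throughout as well, and the smooth muscle actin ACTA2 reached at most 0.558 FPKM.

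Between 1 h and 12 h, 5113 of the 12467 genes changed (41.0%). Of these, 2100 rose (16.8%) and 3013 fell (24.2%). Most changes were small: 300 called genes (2.41%) differed by at least 1 on the log2 scale, 187 up (1.5%) and 113 down (0.906%). The 2 groups did not overlap at 5762 genes (46.2%). Rises made up 41.1% of the calls, and 51.3% (2514 up, 2391 down) after median-of-ratios scaling, which moves the median change of all genes toward 0 by its construction. Without TGFb 1 h replicate 1, 4951 genes were called. Of the original calls, 4283 were called in the same direction without it, 830 were lost and 668 others were gained, and 2 of the 300 large calls were lost. In bulk RNA, fewer cells with a transcript and less of it per cell cannot be told apart.

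**Figure D1:**
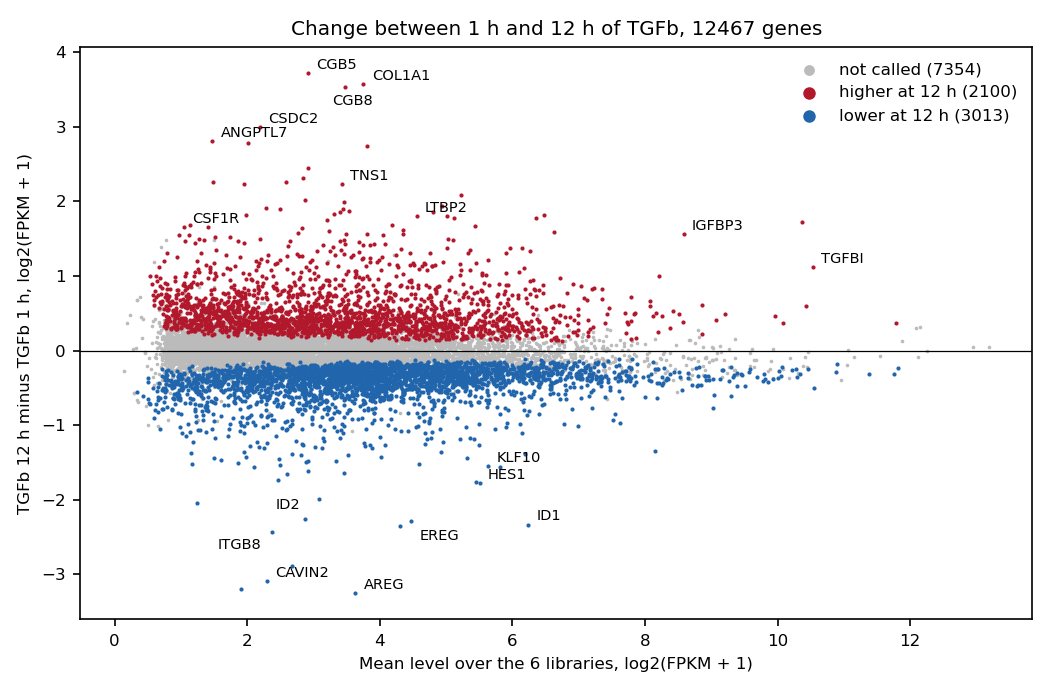
Change between 1 h and 12 h of TGFb (y axis, difference of log2(FPKM + 1)) against the mean level over the 6 libraries (x axis, log2(FPKM + 1)) for 12467 genes; red points rose, blue points fell, grey points were not called. COL1A1 and the CGB genes stand highest, AREG, CAVIN2, ITGB8 and the ID genes lowest, and TGFBI combines a change above 1 with a very high level.

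The largest rises were of genes that were low or near silent at 1 h. COL1A1, which encodes the alpha-1 chain of type I collagen (chromosome 17, 50183289 to 50201632, minus strand), was at 45.1, 45.9 and 45.2 FPKM at 12 h, against 2.36, 3.14 and 3.3 FPKM at 1 h (3.57 ± 0.09, adjusted p = 1.3e-12). It was at 2.44 ± 0.229 FPKM in mock, so the 1 h libraries lay near the mock level and the 12 h libraries far above both. CSDC2, an RNA-binding cold-shock domain protein, was at 11.5, 12.3 and 12 FPKM at 12 h, against 0.572, 0.545 and 0.757 FPKM at 1 h (3.0 ± 0.08, adjusted p = 5.0e-12). ANGPTL7, a secreted angiopoietin-like protein, was at 7.49, 5.82 and 5.9 FPKM at 12 h, against 0.0490, 0.0599 and 0.0405 FPKM at 1 h (2.81 ± 0.10). The largest rises were picked among genes whose groups did not overlap, so the separation of these groups was fixed by that choice.

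Genes for the beta subunit of chorionic gonadotropin, a placental hormone, made up 4 of the 12 largest rises. CGB5 was at 27.1, 27.2 and 24.8 FPKM at 12 h, against 1.67, 0.647 and 1.03 FPKM at 1 h (3.72 ± 0.15), and CGB8 was at 37.5, 36.2 and 36.5 FPKM at 12 h, against 2.62, 2.07 and 2.09 FPKM at 1 h (3.54 ± 0.11). CGB3 and CGB1 changed by 2.78 and 2.25. These genes lie side by side on chromosome 19 (CGB5 at 49043884 to 49045311, CGB8 at 49047638 to 49049106) and are nearly identical copies, so the division of reads among them by the authors' pipeline is uncertain. Other large rises were those of ODAPH (2.74), VSTM4 (2.45), NKAIN4 (2.30) and GXYLT2, a glycosyltransferase that extends sugars on Notch-type repeats (2.26).

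The largest falls were of genes that stood high at 1 h and, for most, in mock. AREG, which encodes the EGF receptor ligand amphiregulin (chromosome 4, 74445134 to 74455009, plus strand), was at 3.06, 2.37 and 3.73 FPKM at 12 h, against 42, 35.4 and 34.6 FPKM at 1 h (-3.25 ± 0.12, adjusted p = 6.0e-11), and at 46.1 ± 2.14 FPKM in mock. CAVIN2, a coat protein of caveolae, was at 0.700, 0.690 and 0.657 FPKM at 12 h, against 13.7, 13.1 and 13.3 FPKM at 1 h (-3.09 ± 0.07). TM4SF18, a small membrane protein, was at 7.54, 7.92 and 7.72 FPKM at 12 h, against 48.1, 38.5 and 44.7 FPKM at 1 h (-2.35 ± 0.07). The potassium channel gene KCNK2 changed by -1.65 and ADAMTS3, a protease that processes procollagen and the VEGFC precursor, by -1.64. The largest falls were likewise picked among genes whose groups did not overlap, so their separation was fixed by that choice.

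Repressors of the ID, HES and HEY families, counted with their relatives BHLHE40 and BHLHE41, were lower at 12 h, and HES4 alone of those tested was not called. ID proteins bind basic helix-loop-helix factors and keep them off DNA, and HES and HEY proteins repress from DNA. Of 13 such genes, 8 passed the filter, 7 of them fell and none rose, with a median change of -1.14, against -0.045 over all genes tested. ID1 (chromosome 20, 31605283 to 31606515, plus strand) was at 32.9, 31.2 and 33.7 FPKM at 12 h, against 147, 197 and 164 FPKM at 1 h (-2.33 ± 0.11, adjusted p = 5.6e-10). It was at 31 ± 4.01 FPKM in mock, so the 12 h libraries were back in the range of the mock libraries. ID2 was at 2.81, 2.46 and 1.83 FPKM at 12 h, against 17.4, 12.6 and 15.6 FPKM at 1 h (-2.26 ± 0.13), with 4.14 ± 0.722 FPKM in mock, and ID3 was at 28.5, 27.8 and 26.2 FPKM at 12 h, against 69, 60.1 and 62 FPKM at 1 h (-1.18 ± 0.07), with 19.3 ± 1.61 FPKM in mock. HES1, a repressor best known as a Notch target (chromosome 3, 194136145 to 194138732, plus strand), was at 22.4, 25.2 and 23 FPKM at 12 h, against 87, 83.6 and 79.4 FPKM at 1 h (-1.78 ± 0.08, adjusted p = 5.3e-10). With 6.44 ± 0.521 FPKM in mock, its 12 h level remained above mock while lying well below the 1 h level. HEY1, which is also known as a Notch target, was at 2.01, 1.46 and 1.5 FPKM at 12 h, against 4.61, 4.54 and 4.83 FPKM at 1 h (-1.10 ± 0.11). HES4 was not called (-0.22).

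The promoter of HES1 is shown because HES1 had the highest 1 h level of the HES and HEY genes tested and because HES1 protein is known to repress its own gene through N boxes. The 250 bases before the RefSeq start (GRCh38.p14, chr3:194135898-194136147, plus strand) carry 3 matches to the N box letters CACNAG and 1 to the letters GTGGGAA bound by the Notch factor RBPJ, on either strand, in capitals.

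HES1: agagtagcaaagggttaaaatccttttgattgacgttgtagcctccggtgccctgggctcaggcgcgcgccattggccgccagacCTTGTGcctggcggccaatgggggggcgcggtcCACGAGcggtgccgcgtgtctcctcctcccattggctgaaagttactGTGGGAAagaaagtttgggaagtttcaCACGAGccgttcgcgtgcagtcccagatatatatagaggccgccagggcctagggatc

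Among all 9419 tested genes with a promoter in the RefSeq table, 28.7% held an N box match and 4.97% the RBPJ letters in the same window. A match is a string of letters.

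Brakes and transducers of the pathway changed in both directions. Of 23 tested genes of feedback and SMAD signalling, 8 rose and 7 fell (median 0.06). SMAD7, the inhibitory SMAD that competes for the receptor (chromosome 18, 48919853 to 48952052, minus strand), was at 20.2, 21.9 and 20.3 FPKM at 12 h, against 35, 36.5 and 35.3 FPKM at 1 h (-0.75 ± 0.05, adjusted p = 7.4e-08). It was at 7.22 ± 0.194 FPKM in mock, so both groups lay above mock. PMEPA1, a membrane protein that sequesters receptor SMADs, went the other way, at 102, 108 and 105 FPKM at 12 h, against 44.2, 49.3 and 51.1 FPKM at 1 h (1.11 ± 0.05, adjusted p = 9.7e-10). SKIL, a repressor that binds SMAD complexes and is degraded and then resynthesised on TGFb signalling, was at 56.7, 59.5 and 50.3 FPKM at 12 h, against 41.4, 54.6 and 54.8 FPKM at 1 h. Its groups overlapped and it was not called (0.15 ± 0.15, adjusted p = 0.45), and it was at 24.4 ± 2.57 FPKM in mock. SMAD3 itself was at 19.4, 17.3 and 18.3 FPKM at 12 h, against 30.3, 40.2 and 38.5 FPKM at 1 h (-0.94 ± 0.09), and at 38.4 ± 1.43 FPKM in mock. Receptor genes rose: BMPR2 to 18.9 ± 0.567 FPKM at 12 h, against 8.99 ± 1.27 FPKM at 1 h (1.00 ± 0.08), the co-receptor ENG by 0.84, ACVR1 by 0.61 and TGFBR1 by 0.60. The type II receptor gene TGFBR2 fell (-0.37), as did TGIF1, a corepressor of SMADs (-0.49), and SMAD6 (-0.39).

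Ligands of the family and the proteins that hold them latent were mostly higher at 12 h. Of 26 genes, 18 passed the filter, of which 12 rose and 5 fell, with a median of 0.73. LTBP2, a latent TGFb-binding protein of the microfibril family, was at 44.7, 42.4 and 41.6 FPKM at 12 h, against 8.55, 13.8 and 13.1 FPKM at 1 h (1.80 ± 0.12, adjusted p = 2.1e-08). Replicate 1 was the lowest of the 1 h libraries. LTBP3 was at 41.9, 37.9 and 39.5 FPKM at 12 h, against 14.5, 19.6 and 19.1 FPKM at 1 h (1.13 ± 0.09). TGFB1 rose by 1.07, TGFB3 by 0.81 and TGFB2 by 0.59. INHBE, an activin subunit gene, was at 7.63, 7.18 and 8.01 FPKM at 12 h, against 2.35, 2.86 and 2.92 FPKM at 1 h (1.22 ± 0.11). The integrin subunits ITGB6 and ITGB8, which take part in activating latent TGFb, moved in opposite directions. ITGB6 was at 29.1, 21.1 and 21.9 FPKM at 12 h, against 7.52, 8.52 and 8.59 FPKM at 1 h (1.43 ± 0.10), whereas ITGB8 was at 1.12, 1.31 and 1.23 FPKM at 12 h, against 9.59, 12 and 11.5 FPKM at 1 h (-2.44 ± 0.10, adjusted p = 1.3e-10). It was at 14.5 ± 0.214 FPKM in mock. The 5 that fell were ITGB8, GDF15 (-1.06), BMP4 (-0.64), BMP2 (-0.32) and the BMP antagonist GREM1 (-0.17).

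**Figure D2:**
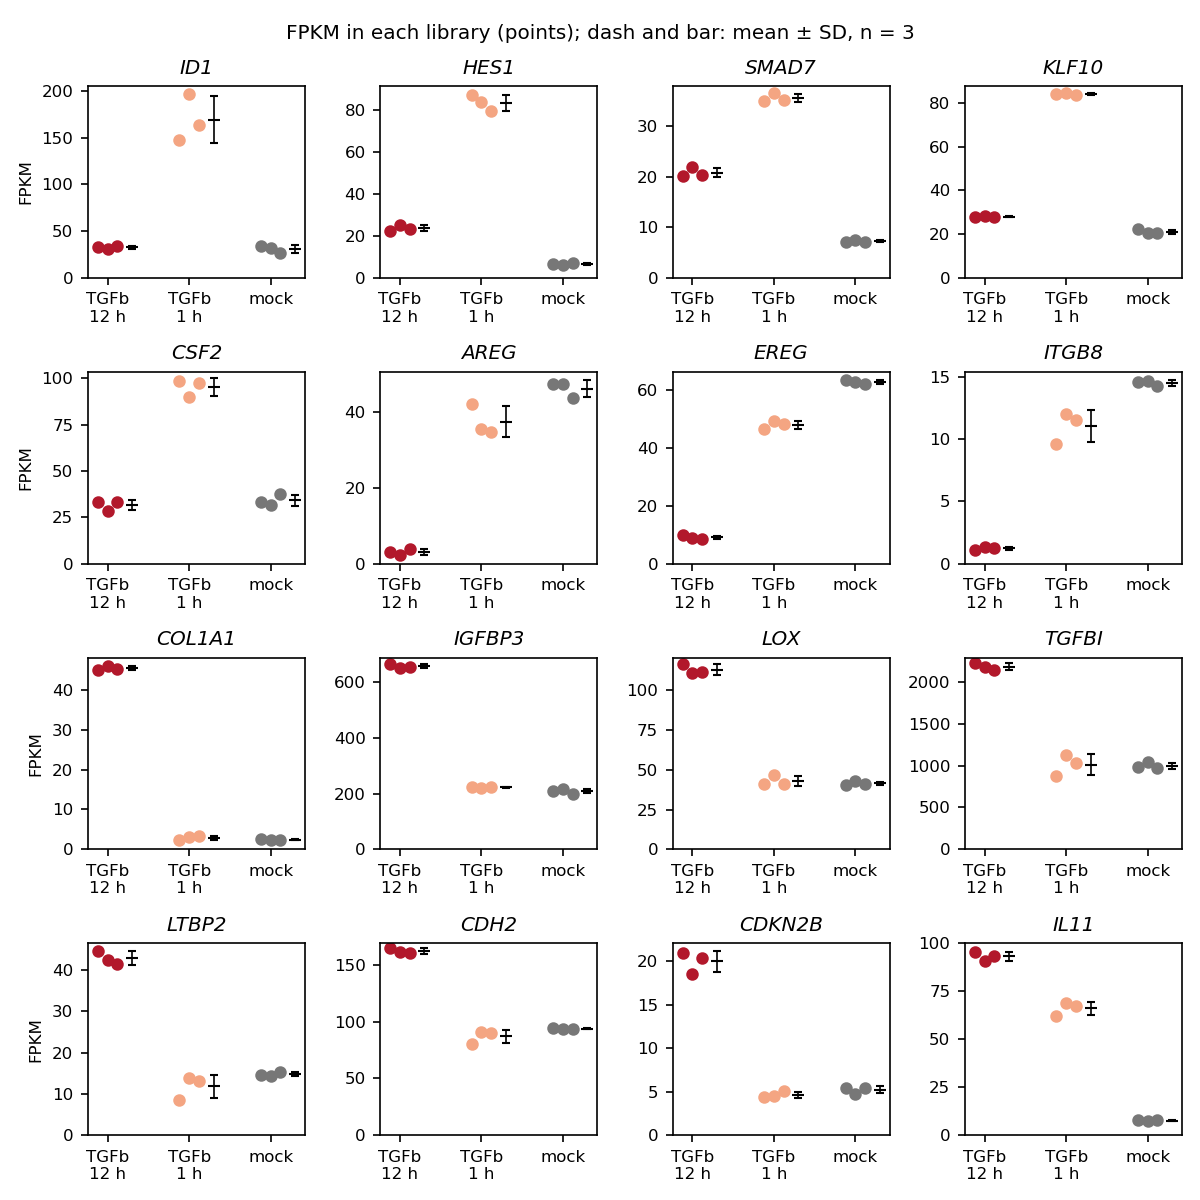
FPKM in each library of 16 genes in the 12 h, 1 h and mock groups (points: libraries; dash and bar: mean ± SD, n = 3; linear axes from 0, with a range of their own for each gene). ID1, HES1, SMAD7, KLF10 and CSF2 are highest at 1 h; COL1A1, IGFBP3, LOX, TGFBI, LTBP2, CDH2 and CDKN2B are highest at 12 h with 1 h nearer mock; AREG, EREG and ITGB8 are low only at 12 h.

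Immediate early genes, which serum and growth factors switch on without new protein synthesis, were lower at 12 h in the majority of those called: 13 of 24 tested fell and 4 rose (median -0.28), and without TGFb 1 h replicate 1, 12 fell and 6 rose. ZFP36, which encodes tristetraprolin, a protein that speeds decay of AU-rich transcripts, was at 3.33, 3.43 and 4.12 FPKM at 12 h, against 9.42, 9.91 and 11 FPKM at 1 h (-1.26 ± 0.10), and at 1.92 ± 0.180 FPKM in mock. Among AP-1 subunits, FOSL1 was at 28.7, 25.7 and 30.1 FPKM at 12 h, against 63.7, 74.9 and 68.6 FPKM at 1 h (-1.27 ± 0.08), FOSB changed by -0.92, JUNB by -0.54 and JUN by -0.32, while JUND (-0.04) and FOSL2 (0.16) were not called. The 4 that rose were EGR2, MYC, ZFP36L1 and SRF. EGR2 was at 13.2, 14.1 and 11.8 FPKM at 12 h, against 6.19, 6.22 and 6.21 FPKM at 1 h (0.96 ± 0.08), above 2.34 ± 0.347 FPKM in mock at both times. MYC was at 103, 111 and 104 FPKM at 12 h, against 54.7, 61.8 and 63.9 FPKM at 1 h (0.81 ± 0.07, adjusted p = 4.0e-07), with 102 ± 4.92 FPKM in mock, so the 1 h libraries were the low ones and the 12 h libraries lay at the mock level. With median-of-ratios scaling 7 immediate early genes rose and 12 fell.

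Kruppel-like factors, a family of zinc finger proteins, were divided: 4 of 10 tested fell and 2 rose, and with median-of-ratios scaling, or without TGFb 1 h replicate 2, 3 rose and 2 fell, and without TGFb 12 h replicate 2, 2 rose and 2 fell. KLF10, first cloned as a TGFb-inducible early gene, was at 28, 28.2 and 27.9 FPKM at 12 h, against 84, 84.5 and 83.5 FPKM at 1 h (-1.55 ± 0.05, adjusted p = 1.2e-11). It was at 21 ± 0.985 FPKM in mock, so the 1 h libraries stood apart from both other groups. KLF11, a relative that is also TGFb-inducible, was at 8.13, 7.28 and 7.91 FPKM at 12 h, against 11, 12.4 and 11.8 FPKM at 1 h (-0.54 ± 0.06). KLF6 (0.85 ± 0.08) and KLF7 (0.75 ± 0.09) rose. KLF5 fell by a small amount (-0.24 ± 0.08, adjusted p = 0.023), a call that was lost without TGFb 1 h replicate 1 or 2 or without TGFb 12 h replicate 1 or 2, with adjusted p up to 0.093. Among 15 tested genes of ERK feedback, which dampen growth factor signalling, 5 fell and 2 rose (46.7% called, against 41.0% of all genes tested). DUSP5, a nuclear ERK phosphatase, was at 1.04, 1.06 and 1.37 FPKM at 12 h, against 4.99, 5.42 and 4.94 FPKM at 1 h (-1.51 ± 0.11), and ETV5 was at 15.3, 14.6 and 13.8 FPKM at 12 h, against 9.72, 10.3 and 10.1 FPKM at 1 h (0.50 ± 0.08).

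The transcription factors of epithelial-mesenchymal transition did not move as one. SNAI1, which encodes Snail, a repressor of epithelial genes, was at 26.3, 30.3 and 29.8 FPKM at 12 h, against 39, 41.2 and 46.7 FPKM at 1 h (-0.54 ± 0.09, adjusted p = 1.9e-04), against 5.28 ± 0.717 FPKM in mock. SNAI2, its relative Slug, was at 2.79, 2.82 and 3.29 FPKM at 12 h, against 1.64, 1.94 and 1.62 FPKM at 1 h (0.54 ± 0.10). TCF4 was at 2.82, 2.05 and 2.19 FPKM at 12 h, against 0.702, 1.52 and 1.55 FPKM at 1 h (0.59 ± 0.15). For TCF4, 1 h replicate 1 was the low library. SOX4 rose by 0.26. ETS1 rose by 0.24, which was 0.12 and no longer called without TGFb 1 h replicate 1 (adjusted p = 0.09), and the call was also lost without TGFb 12 h replicate 2 (adjusted p = 0.133). In all, 4 of 10 tested rose and 1 fell. ZEB1 (0.14), ZEB2 (0.07) and TWIST1 (0.13) were not called, and TWIST2, PRRX1 and GSC were listed at 0.

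Collagen chains and the enzymes that mature them rose in the majority of called cases. Of 26 collagen genes, 13 were tested; 8 rose and COL8A1 alone fell (-0.67), with a median of 0.33, or 0.22 without TGFb 1 h replicate 1. After COL1A1, the fibrillar COL27A1 was at 24.2, 18.9 and 19.6 FPKM at 12 h, against 3.6, 5.19 and 4.82 FPKM at 1 h (1.99 ± 0.10) and COL16A1, a fibril-associated chain, at 14.7, 13.8 and 13.7 FPKM at 12 h, against 5.06, 5.16 and 4.68 FPKM at 1 h (1.34 ± 0.07). The basement membrane chain COL4A1 was at 428, 410.2 and 409 FPKM at 12 h, against 171, 236 and 223 FPKM at 1 h (0.99 ± 0.09, adjusted p = 6.1e-07) and its partner COL4A2 rose by 0.67. COL7A1, the anchoring fibril collagen, changed by 0.89 ± 0.09. The other major interstitial chains did not follow COL1A1 in level: COL1A2 reached at most 0.0445 FPKM and COL3A1 at most 0.0608 FPKM in any library, under the filter. Of 22 tested collagen-modifying and crosslinking enzymes, 11 rose and none fell, whereas 11 rose and 2 fell without TGFb 1 h replicate 1. LOX, the lysyl oxidase that crosslinks collagen and elastin, was at 117, 111 and 112 FPKM at 12 h, against 40.8, 46.8 and 41.1 FPKM at 1 h (1.38 ± 0.06, adjusted p = 2.0e-10), and LOXL1 was at 20.2, 20.1 and 22.1 FPKM at 12 h, against 9.42, 9.97 and 11.4 FPKM at 1 h (0.95 ± 0.07). Prolyl hydroxylase subunits differed: P4HA2 (0.83 ± 0.07) and P4HA3 (0.92 ± 0.11) rose and P4HA1 was not called (-0.01). The crosslinking transglutaminase TGM2 was at 75.3, 84.4 and 80.5 FPKM at 12 h, against 35, 46.3 and 48.6 FPKM at 1 h (0.88 ± 0.10).

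Matrix glycoproteins and proteoglycans rose in 16 of 32 tested cases and fell in 3 (median 0.35, or 0.22 without TGFb 1 h replicate 1). TGFBI, a TGFb-induced adhesion protein, was among the most abundant transcripts at 2226, 2185 and 2145 FPKM at 12 h, against 876, 1125 and 1031 FPKM at 1 h (1.12 ± 0.08, adjusted p = 4.4e-08). FBN1 (fibrillin) changed by 0.87 ± 0.15 and THBS2, an antiangiogenic thrombospondin, by 0.78 ± 0.10. FN1, fibronectin, was at 1739, 1664 and 1660.2 FPKM at 12 h, against 740.5, 1451 and 1309 FPKM at 1 h (0.59 ± 0.17, adjusted p = 0.011). Its 1 h replicate 1 was the low library, and without it the change was 0.29 and still called. HSPG2, the basement membrane proteoglycan perlecan, behaved likewise, at 0.66 with all libraries and 0.25 without that one, and its call was lost without any 1 of the 12 h libraries (adjusted p up to 0.072). CCN2, a matricellular target of both SMAD and YAP, was at 236, 240.2 and 247 FPKM at 12 h, against 191, 183 and 178 FPKM at 1 h (0.39 ± 0.06, adjusted p = 1.0e-04), and at 96 ± 0.323 FPKM in mock, so the 1 h libraries already lay above mock. CCN1 (-0.47), CCN3 (-0.54) and LUM (-0.43) fell, and the LUM call was lost without TGFb 1 h replicate 1 (adjusted p = 0.144) and without TGFb 12 h replicate 2 or 3.

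Proteases of the matrix and their inhibitors were divided, with 11 of 22 tested up and 6 down, or 11 up and 9 down without TGFb 1 h replicate 1. PLAT, the tissue plasminogen activator, fell (-0.81), as did the urokinase receptor PLAUR (-0.60), while the urokinase gene PLAU rose (0.36). Metalloproteases of the ADAM families went both ways: ADAM19 was at 31.3, 31.6 and 31.2 FPKM at 12 h, against 7.21, 10.7 and 9.72 FPKM at 1 h (1.68 ± 0.10), and ADAM12 (0.96 ± 0.09), ADAMTS15 (1.83 ± 0.11) and ADAMTS6 (1.08 ± 0.11) rose as well, whereas ADAMTS3 fell (-1.64). MMP14 rose (0.81), and MMP7 (-0.89) and MMP1 (-0.57) fell. Among 14 tested integrins 6 rose, including the fibronectin receptor pair ITGA5 (0.83 ± 0.11) and ITGB1 (0.22), ITGAV (0.77 ± 0.06) and ITGA2 (0.43 ± 0.08), and 3 fell, which were ITGB8, ITGA3 (-0.38) and ITGB2 (-0.24).

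The actin cytoskeleton and contractile genes were higher at 12 h as a list. Of 34 tested, 21 rose and 2 fell, TPM3 (-0.41) and CSRP1 (-0.32), with a median of 0.37. TNS1, a tensin that ties actin to integrins, was at 21.8, 22.3 and 22.7 FPKM at 12 h, against 2.12, 6.18 and 4.44 FPKM at 1 h (2.23 ± 0.20, adjusted p = 8.7e-07). CNN1, the smooth muscle calponin, was at 18, 15.4 and 18.9 FPKM at 12 h, against 6.14, 5.19 and 5.55 FPKM at 1 h (1.47 ± 0.11), and CALD1, caldesmon, at 86.7, 78.5 and 79.99 FPKM at 12 h, against 43.1, 44.3 and 44.8 FPKM at 1 h (0.88 ± 0.06). CDH2, the cadherin shared by proximal tubule cells and mesenchyme, was at 165, 162 and 161 FPKM at 12 h, against 80.1, 91.5 and 89.8 FPKM at 1 h (0.90 ± 0.05, adjusted p = 5.8e-09), and at 94 ± 0.441 FPKM in mock. VIM, the mesenchymal intermediate filament vimentin, was at 1218, 1223 and 1269 FPKM at 12 h, against 874, 1023 and 974 FPKM at 1 h (0.37 ± 0.06, adjusted p = 3.7e-04). Without TGFb 1 h replicate 1 the list's median was 0.24, with 21 up and 3 down, and without TGFb 1 h replicate 2 it had 24 up and 6 down.

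Keratin and epithelial junction genes changed in both directions, with 8 of 28 tested up and 10 down. KRT7 was at 94.3, 104 and 101 FPKM at 12 h, against 38.5, 36.2 and 39.4 FPKM at 1 h (1.37 ± 0.06) and KRT19 at 14.9, 15.6 and 16.3 FPKM at 12 h, against 37, 39.6 and 39.2 FPKM at 1 h (-1.26 ± 0.07), so these simple-epithelial keratins moved in opposite directions with no overlap. DSP, desmoplakin, which links desmosomes to keratin, was at 61.6, 61.9 and 63.6 FPKM at 12 h, against 17.3, 30.5 and 27.8 FPKM at 1 h (1.31 ± 0.14). Claudins of tight junctions fell: CLDN2, the cation-permeable claudin of the proximal tubule, was at 0.454, 0.511 and 0.554 FPKM at 12 h, against 2.29, 2.12 and 2.24 FPKM at 1 h (-1.10 ± 0.12), and CLDN11 (-0.93), CLDN1 (-0.70) and CLDN16 (-0.70) were lower as well, while CLDN4 (-0.01) and CLDN12 (0.05) were not called. The polarity gene PARD6B changed by -0.99 ± 0.12. The adhesion molecule EPCAM (-0.63) and the epithelial splicing factor ESRP2 (-0.85) also fell.

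Of 16 tested proximal tubule and nephric genes, 7 fell and 4 rose. PAX8, a transcription factor of the renal lineage, was at 26.2, 24 and 25.2 FPKM at 12 h, against 40.8, 52.9 and 51.2 FPKM at 1 h (-0.91 ± 0.08, adjusted p = 9.0e-07), and at 53.4 ± 2.22 FPKM in mock. SLC4A4, the basolateral sodium bicarbonate transporter, was at 3.58, 3.82 and 3.57 FPKM at 12 h, against 6.55, 8.55 and 8.59 FPKM at 1 h (-0.93 ± 0.10), and MIOX, a tubular inositol oxygenase, at 3.81, 4.1 and 5.29 FPKM at 12 h, against 8.8, 7.33 and 7.16 FPKM at 1 h (-0.70 ± 0.10). ASS1, the urea cycle enzyme that feeds arginine synthesis in the tubule, was the largest rise at 39.5, 43.3 and 42.2 FPKM at 12 h, against 16.6, 14.6 and 17.8 FPKM at 1 h (1.30 ± 0.07, adjusted p = 5.8e-09). CDH6, the cadherin of the nephric lineage, was at 55.6, 48.1 and 52.5 FPKM at 12 h, against 29.1, 33.2 and 33.5 FPKM at 1 h (0.69 ± 0.07). Among 17 tested genes of tubular injury 8 fell and 5 rose. HAVCR1, which encodes the injury marker KIM-1, and LCN2 fell (-0.46 and -0.45), while CLU (0.43) and TIMP2 (0.59 ± 0.06) rose. CCL2 was at 2.99, 1.88 and 2.9 FPKM at 12 h, against 2.2, 0.755 and 0.654 FPKM at 1 h (0.76 ± 0.21), with 1 h replicate 1 the high library of its group.

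Most ligands of the EGF family fell and 2 receptors rose. EREG, epiregulin, which lies near AREG on chromosome 4 (74365143 to 74388751), was at 9.71, 8.84 and 8.61 FPKM at 12 h, against 46.6, 49.3 and 48.1 FPKM at 1 h (-2.29 ± 0.05, adjusted p = 1.1e-12), and at 62.9 ± 0.662 FPKM in mock. TGFA was at 7.7, 8.03 and 8.03 FPKM at 12 h, against 13.1, 15.8 and 14.9 FPKM at 1 h (-0.80 ± 0.07), BTC at 0.382, 0.234 and 0.363 FPKM at 12 h, against 1.27, 0.900 and 1.58 FPKM at 1 h (-0.75 ± 0.12), and NRG1 changed by -0.41. HBEGF was not called (-0.11), and EGF itself rose (0.60). EGFR was at 51.2, 50.2 and 50.5 FPKM at 12 h, against 22.3, 39.98 and 37.4 FPKM at 1 h (0.64 ± 0.14), or 0.38 without TGFb 1 h replicate 1, and ERBB2 changed by 0.31, or 0.20 without it. Altogether 5 of 9 tested ligand and receptor genes fell and 3 rose.

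Of 19 tested growth factor and angiogenic genes 9 rose and 4 fell. IGFBP3, which binds insulin-like growth factors, was at 666, 652 and 656 FPKM at 12 h, against 223, 222 and 223 FPKM at 1 h (1.56 ± 0.05, adjusted p = 1.4e-11). It was at 209 ± 8.37 FPKM in mock, so the 1 h libraries lay near mock and the 12 h libraries far above. VEGFA was at 101, 101 and 92.9 FPKM at 12 h, against 52.7, 58.2 and 63.5 FPKM at 1 h (0.75 ± 0.07) and ANGPTL4, an inhibitor of lipoprotein lipase, at 32.7, 30.7 and 31.1 FPKM at 12 h, against 11, 14.7 and 15.8 FPKM at 1 h (1.14 ± 0.15), both above mock at both times (27.3 ± 1.47 FPKM in mock and 4.24 ± 0.899 FPKM in mock). The FGF receptors diverged, with FGFR1 at 16, 15.7 and 16.4 FPKM at 12 h, against 7.61, 9.47 and 9.19 FPKM at 1 h (0.81 ± 0.07) and FGFR2 at 3.0, 3.6 and 2.33 FPKM at 12 h, against 8.06, 11 and 8.98 FPKM at 1 h (-1.38 ± 0.13). Among 25 tested WNT and Notch genes 8 rose and 8 fell. JAG1, a Notch ligand, was at 148, 155 and 149 FPKM at 12 h, against 35.9, 49.1 and 46 FPKM at 1 h (1.77 ± 0.08, adjusted p = 9.7e-10), WNT5B at 52.6, 55.3 and 60.8 FPKM at 12 h, against 17.1, 21.1 and 20.5 FPKM at 1 h (1.48 ± 0.08) and WNT7B at 3.0, 3.29 and 3.69 FPKM at 12 h, against 8.92, 14.4 and 14 FPKM at 1 h (-1.61 ± 0.14). The WNT antagonist DKK1 changed by -0.85 ± 0.08. The Notch partner RBPJ (0.47) and receptors NOTCH2 (0.78, or 0.46 without TGFb 1 h replicate 1) and NOTCH3 (0.60) rose, and NRARP, a feedback target of Notch, fell (-0.68).

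Cytokines and chemokines were mostly lower at 12 h: 11 of 21 tested fell and 4 rose. CSF2, the granulocyte-macrophage colony-stimulating factor, was at 33.3, 28.4 and 33.2 FPKM at 12 h, against 98.5, 89.8 and 97.4 FPKM at 1 h (-1.56 ± 0.09, adjusted p = 1.0e-08), and at 34.2 ± 2.9 FPKM in mock, so the 1 h libraries lay above those of both other groups. CX3CL1, fractalkine, was at 0.823, 0.567 and 0.798 FPKM at 12 h, against 3.13, 4.13 and 3.8 FPKM at 1 h (-1.44 ± 0.09), and IL6R, the receptor of interleukin-6, was at 0.301, 0.475 and 0.474 FPKM at 12 h, against 2.11, 2.03 and 2.29 FPKM at 1 h (-1.15 ± 0.11). IL6 itself was at 33.5, 30.01 and 30.5 FPKM at 12 h, against 48, 45.4 and 40.1 FPKM at 1 h (-0.49 ± 0.07). IL11, an interleukin-6 family cytokine studied in fibrosis, was at 95.5, 90.8 and 93.6 FPKM at 12 h, against 62.2, 68.6 and 67.5 FPKM at 1 h (0.49 ± 0.07, adjusted p = 6.2e-05) with 7.51 ± 0.258 FPKM in mock, so the 1 h libraries already lay far above mock. LIFR, the receptor of LIF, rose (0.38), and LIF was called only with TGFb 1 h replicate 1 in the fit (0.16, adjusted p = 0.075 without it). Of 17 tested genes of NF-kB and its feedback, 6 fell and 3 rose. NFKBIA, the inhibitor IkB-alpha and a target of NF-kB, was at 16.4, 16.6 and 16.2 FPKM at 12 h, against 39.2, 37.4 and 39.2 FPKM at 1 h (-1.18 ± 0.05, adjusted p = 4.4e-10), and BIRC3, an inhibitor of apoptosis, was at 1.47, 1.1 and 1.07 FPKM at 12 h, against 4.11, 3.83 and 3.72 FPKM at 1 h (-1.15 ± 0.10). Interferon-stimulated genes showed no common direction, with 6 of 26 down and 3 up (median -0.029; 34.6% called, against 41.0% of all genes tested). Without TGFb 1 h replicate 1, 4 fell and 4 rose (median 0.013), and without TGFb 12 h replicate 3, 4 fell and 1 rose.

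The cell cycle lists moved in opposite directions. Genes of DNA replication and the G1/S transition, which are expressed ahead of S phase under E2F control, fell in 36 of 46 cases, and E2F7, an atypical E2F that represses the others, alone rose (0.61). The median was -0.38, and it was -0.40 with 34 down without TGFb 1 h replicate 1. CCNE2, a cyclin E that opens S phase, was at 7.0, 6.22 and 7.09 FPKM at 12 h, against 15.3, 13.8 and 14.9 FPKM at 1 h (-1.01 ± 0.14, adjusted p = 4.8e-05). E2F1 was at 15.6, 14.2 and 15.4 FPKM at 12 h, against 29.5, 26.6 and 27.1 FPKM at 1 h (-0.84 ± 0.06, adjusted p = 9.9e-08), and SLBP, which binds histone transcripts, at 47, 45.3 and 43.9 FPKM at 12 h, against 89.4, 74 and 75.9 FPKM at 1 h (-0.80 ± 0.09). Each of the helicase subunits fell, with changes of -0.60 for MCM2, -0.62 for MCM3, -0.43 for MCM4, -0.58 for MCM5, -0.62 for MCM6 and -0.36 for MCM7. Mitosis genes, expressed in G2 and M, rose in 26 of 39 cases, and ECT2, which directs cytokinesis, alone fell (-0.24). Their median was 0.28, or 0.33 with 31 up without TGFb 1 h replicate 1. NEK2, a centrosome kinase, was at 43.7, 41.8 and 36.8 FPKM at 12 h, against 31.4, 27.2 and 28.5 FPKM at 1 h (0.48 ± 0.07), and CENPF, a kinetochore protein, at 80.2, 64.3 and 62.3 FPKM at 12 h, against 43.4, 50.7 and 51.8 FPKM at 1 h (0.49 ± 0.09). MKI67, the proliferation marker, was at 71.8, 67.9 and 68.4 FPKM at 12 h, against 28.2, 56.6 and 53.5 FPKM at 1 h (0.64 ± 0.17), and the change was 0.33 without TGFb 1 h replicate 1. CENPE was at 17, 8.64 and 8.58 FPKM at 12 h, against 6.74, 5.9 and 5.91 FPKM at 1 h (0.72 ± 0.22). The high library there was 12 h replicate 1, without which CENPE was no longer called (adjusted p = 0.087).

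The promoters of MCM6 and TOP2A are shown as examples of promoters in which the letters known for each class of genes recur. Both genes were picked after their values were seen. In MCM6 (GRCh38.p14, chr2:135876444-135876693, minus strand) the capitals are E2F letters TTTNGCGC on either strand, 4 matches that overlap in 2 blocks. In TOP2A (chr17:40417897-40418146, minus strand) they are 4 CCAAT boxes, the letters bound by NF-Y, and 2 matches to TTTGAA, the cell cycle homology region (CHR) of G2/M genes.

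MCM6: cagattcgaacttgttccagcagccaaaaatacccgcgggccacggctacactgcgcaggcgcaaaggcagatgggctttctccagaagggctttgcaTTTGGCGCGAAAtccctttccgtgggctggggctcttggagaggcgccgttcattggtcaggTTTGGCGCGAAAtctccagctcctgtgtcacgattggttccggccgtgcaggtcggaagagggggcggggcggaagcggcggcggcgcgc

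TOP2A: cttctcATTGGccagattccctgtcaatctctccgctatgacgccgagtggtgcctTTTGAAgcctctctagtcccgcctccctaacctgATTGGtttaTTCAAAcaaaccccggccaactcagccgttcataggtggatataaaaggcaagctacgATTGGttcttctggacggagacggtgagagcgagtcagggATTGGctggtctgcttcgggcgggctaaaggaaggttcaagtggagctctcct

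E2F letters were present in 31.6% of 38 replication promoters and 3.12% of 32 mitosis promoters, against 2.61% of the 9419 promoters of all tested genes. CHR letters were present in 56.2% of mitosis and 2.63% of replication promoters, against 7.93% of all, and CCAAT in 84.4% and 57.9%, against 35.5%. These shares are descriptions of sequence, and no binding was measured. The change of MCM6 was -0.62 and the rise of TOP2A 0.38.

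Inhibitors of cyclin-dependent kinases changed one by one. CDKN2B, p15, a classical mediator of TGFb growth arrest (chromosome 9, 22002903 to 22009363, minus strand), was at 20.9, 18.6 and 20.4 FPKM at 12 h, against 4.39, 4.51 and 5.02 FPKM at 1 h (1.90 ± 0.09, adjusted p = 1.0e-09), and at 5.19 ± 0.398 FPKM in mock. CDKN1A, p21, went the other way, at 8.3, 8.95 and 8.95 FPKM at 12 h, against 13.5, 13.3 and 14 FPKM at 1 h (-0.59 ± 0.07), with 6.45 ± 0.558 FPKM in mock. CDKN2A was at 228, 188 and 227 FPKM at 12 h, against 104, 179.6 and 157 FPKM at 1 h (0.57 ± 0.14), where 1 h replicate 1 was the low library and the change was 0.34 without it. The list of CDK inhibitors, D cyclins and p53 targets had 9 up and 8 down of 34. TP53I3 (0.76 ± 0.11) rose and FAS (-0.73 ± 0.13) fell, so p53 targets did not share a direction.

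**Figure D3:**
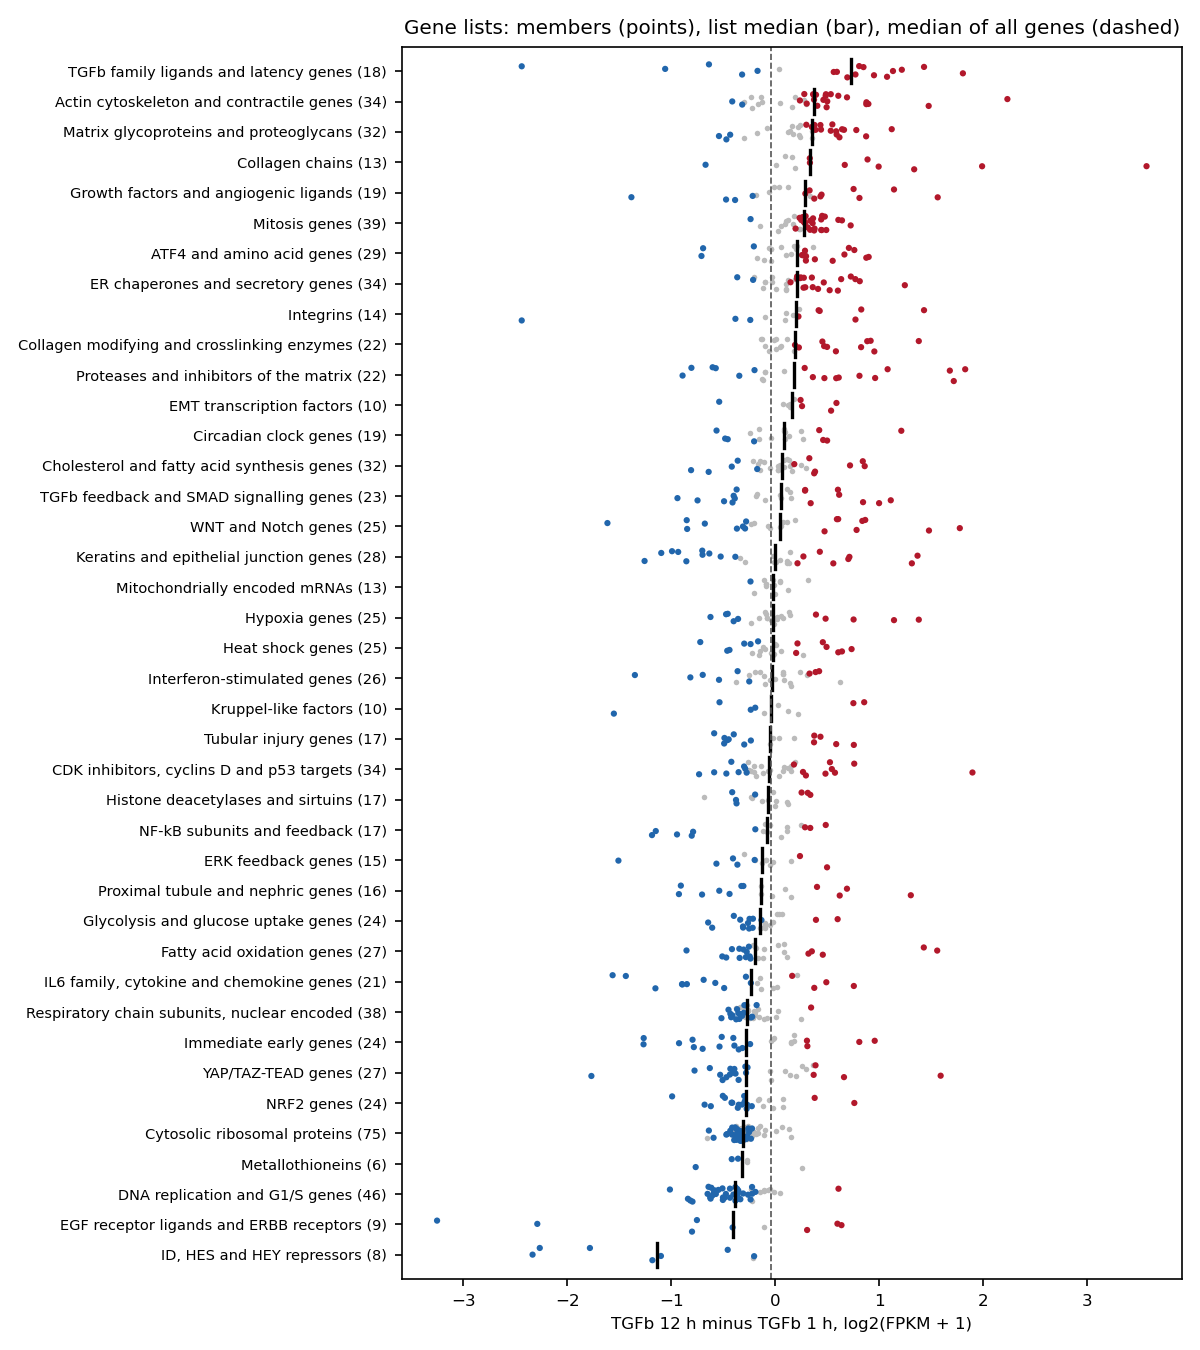
Change of every tested member (points, 12 h minus 1 h, difference of log2(FPKM + 1)) in 40 gene lists with at least 5 tested members, number in brackets; red members rose, blue fell, grey were not called, black bars are list medians and the dashed line is the median of all 12467 genes. Ligands and latency genes, actin, matrix, collagen and mitosis genes lie to the right, and the ID, HES and HEY repressors, EGF ligands and replication genes to the left.

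The secretory apparatus was higher at 12 h: 19 of 34 tested genes of endoplasmic reticulum (ER) chaperones and vesicle transport rose, and SEC61B (-0.37, or -0.21 without TGFb 1 h replicate 1) and CANX (-0.21) fell. The transcription factor CREB3L2, which drives vesicle coat genes in matrix-secreting cells, was at 19.9, 19 and 20.5 FPKM at 12 h, against 6.24, 8.88 and 8.4 FPKM at 1 h (1.25 ± 0.09, adjusted p = 1.2e-07), and its relative CREB3L1 was at 35.1, 37.1 and 37.5 FPKM at 12 h, against 19, 22.6 and 21.6 FPKM at 1 h (0.77 ± 0.07). SEC24D, a coat component needed for collagen export, was at 39.8, 39.1 and 41.2 FPKM at 12 h, against 20.8, 24.9 and 25.9 FPKM at 1 h (0.73 ± 0.07). MANF, an ER stress protein, was at 47.2, 42.3 and 39.2 FPKM at 12 h, against 30.05, 20.1 and 22.7 FPKM at 1 h (0.81 ± 0.12), and XBP1, the factor spliced by IRE1 in the unfolded protein response, was at 73.6, 71.7 and 77.2 FPKM at 12 h, against 52.1, 46.4 and 44.2 FPKM at 1 h (0.63 ± 0.07, adjusted p = 1.1e-05). The chaperone HSPA5 (BiP) rose by 0.47. Without TGFb 1 h replicate 1 or 2, 20 rose and 4 fell, and without TGFb 12 h replicate 2, 17 rose and 1 fell.

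The XBP1 promoter (GRCh38.p14, chr22:28800570-28800819, minus strand) is shown because it holds the ER stress response element, CCAAT and CCACG with 9 bases between, which is rare among promoters. It was present in 19.4% of 31 ER promoters, against 0.149% of all 9419. The match is in capitals.

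XBP1: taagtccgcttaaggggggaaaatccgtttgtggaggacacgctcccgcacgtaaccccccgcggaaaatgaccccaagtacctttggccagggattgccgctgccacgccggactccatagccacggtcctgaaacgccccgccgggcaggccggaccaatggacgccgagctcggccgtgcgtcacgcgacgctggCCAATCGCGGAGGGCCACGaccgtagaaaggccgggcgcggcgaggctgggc

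Genes of the ATF4 response, which supplies amino acids, rose in 12 of 29 tested cases and fell in 3, ATF5, STC2 and PSPH. SLC7A5, a leucine transporter, was at 64.1, 69 and 68.6 FPKM at 12 h, against 31.3, 40.8 and 37.1 FPKM at 1 h (0.88 ± 0.08), SLC7A11, the cystine transporter, at 4.23, 3.47 and 3.39 FPKM at 12 h, against 1.53, 1.96 and 1.82 FPKM at 1 h (0.76 ± 0.09), and ALDH1L2, a mitochondrial folate enzyme, at 6.22, 4.97 and 5.11 FPKM at 12 h, against 2.02, 2.88 and 2.47 FPKM at 1 h (0.90 ± 0.09). ATF4 itself was not called (-0.05), and ATF5 was at 3.24, 4.69 and 4.02 FPKM at 12 h, against 7.16, 6.5 and 7.65 FPKM at 1 h (-0.71 ± 0.11).

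Metabolic lists differed in direction, and over all genes tested 24.2% fell and 16.8% rose. In glycolysis and glucose uptake 12 of 24 tested fell and 2 rose (median -0.14), but only 6 fell after quantile normalization and only 4 when the fit held the 6 libraries alone. LDHB was at 499.7, 523 and 506 FPKM at 12 h, against 982, 661 and 719.6 FPKM at 1 h (-0.61 ± 0.10) and PFKFB3, which makes the activator of phosphofructokinase, at 68.4, 67.5 and 68.7 FPKM at 12 h, against 94.1, 114 and 115 FPKM at 1 h (-0.64 ± 0.07, adjusted p = 4.6e-06). The platelet-type phosphofructokinase PFKP was at 313, 336 and 346 FPKM at 12 h, against 191, 233 and 235 FPKM at 1 h (0.60 ± 0.07) and the glucose transporter SLC2A1 at 244, 261 and 254 FPKM at 12 h, against 163, 211 and 208 FPKM at 1 h (0.39 ± 0.08), the pair that rose. Fatty acid oxidation had 12 of 27 down and 5 up, and 9 down and 3 up without TGFb 1 h replicate 1, with 2 up without TGFb 12 h replicate 1 and 3 up without TGFb 12 h replicate 2. CPT1A, the gatekeeper of mitochondrial import, was at 2.91, 3.08 and 2.65 FPKM at 12 h, against 3.21, 3.87 and 4.09 FPKM at 1 h (-0.28 ± 0.08, adjusted p = 0.013). Its call was lost without TGFb 1 h replicate 3 (adjusted p = 0.060) or TGFb 12 h replicate 3 (adjusted p = 0.059). PPARGC1A, a coactivator of mitochondrial genes, was at 1.08, 1.28 and 0.911 FPKM at 12 h, against 2.58, 3.12 and 2.61 FPKM at 1 h (-0.85 ± 0.09). PPARD, a nuclear receptor for fatty acids, was at 23.2, 23 and 23.1 FPKM at 12 h, against 6.78, 7.11 and 7.74 FPKM at 1 h (1.56 ± 0.06, adjusted p = 6.5e-11), and the peroxisomal oxidase ACOX3 at 15.9, 18.1 and 17.8 FPKM at 12 h, against 4.76, 6.31 and 6.43 FPKM at 1 h (1.43 ± 0.10). Cholesterol and fatty acid synthesis was mixed, with 7 of 32 up and 5 down (median 0.06). That is 37.5% called, against 41.0% of all genes tested. ACLY (0.84 ± 0.08), SCD (0.72 ± 0.08) and STARD4 (0.86 ± 0.08) rose, and PMVK (-0.81 ± 0.11) was among those that fell.

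Antioxidant genes under NRF2 fell in 15 of 24 tested cases and rose in 2, ME1 and SLC7A11 (median -0.28, or -0.26 with 13 down without TGFb 1 h replicate 1). FTH1, ferritin heavy chain, was at 1242, 1218 and 1315 FPKM at 12 h, against 1639, 1989 and 1742 FPKM at 1 h (-0.50 ± 0.09, adjusted p = 5.2e-04), and TXN, thioredoxin, at 204, 205 and 208 FPKM at 12 h, against 417, 267 and 284 FPKM at 1 h (-0.62 ± 0.12), with 1 h replicate 1 the high library. SLC48A1, a heme transporter, was at 3.45, 4.09 and 3.15 FPKM at 12 h, against 7.39, 8.8 and 7.99 FPKM at 1 h (-0.99 ± 0.08). NFE2L2, which encodes NRF2, was not called (-0.16). Heat shock genes were split, with 7 of 25 up and 6 down (52.0% called, against 41.0% of all genes tested). HSPA1A (0.73 ± 0.05) and its near-identical neighbour HSPA1B (0.64 ± 0.05) rose, as did the small heat shock protein HSPB1 (0.61 ± 0.15), and the mitochondrial pair HSPD1 (-0.44) and HSPE1 (-0.72) fell. HSPE1 was at 71.8, 66.6 and 67.4 FPKM at 12 h, against 186, 83.3 and 94.7 FPKM at 1 h, so 1 h replicate 1 stood high, and the change was -0.37 without it. Of 6 tested genes of metal handling, 3 fell, and 5 without TGFb 1 h replicate 2. MT1M was at 5.99, 7.26 and 5.45 FPKM at 12 h, against 16.3, 8.21 and 10.4 FPKM at 1 h (-0.76 ± 0.16), SLC30A1, a zinc exporter, changed by -0.42 ± 0.05, and the call of MT1F was lost without TGFb 1 h replicate 1 (adjusted p = 0.19) and without any 1 of the 12 h libraries. Hypoxia genes had 5 of 25 up and 5 down, led by LOX and ANGPTL4 upward and by BNIP3 downward (-0.62 ± 0.05).

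In the circadian list 4 of 19 tested rose and 4 fell, or 3 rose and 6 fell without TGFb 1 h replicate 1. With all libraries 42.1% of the list was called, against 41.0% of all genes tested. BMAL1, the positive arm of the clock, was at 12, 10.7 and 10.4 FPKM at 12 h, against 4.26, 4.1 and 4.2 FPKM at 1 h (1.21 ± 0.08, adjusted p = 2.4e-08), and at 4.86 ± 0.261 FPKM in mock. PER2 (0.46 ± 0.11), NR1D1 (0.50 ± 0.11) and NPAS2 (0.42, with adjusted p = 0.069 without TGFb 1 h replicate 1) rose, and NR1D2 (-0.56 ± 0.06) and CIART (-0.48 ± 0.10) fell, with BHLHE40 and BHLHE41 of the repressor list. The targets and partners of YAP, TAZ and TEAD, which report on cell shape and density, fell in 15 of 27 cases and rose in 4 (median -0.28). ARHGAP29, a GTPase-activating protein, was at 23.2, 22 and 22.6 FPKM at 12 h, against 77, 78.6 and 82.4 FPKM at 1 h (-1.77 ± 0.05, adjusted p = 6.7e-12), AMOTL2 at 43, 43.5 and 46.3 FPKM at 12 h, against 64.3, 82.6 and 84.1 FPKM at 1 h (-0.78 ± 0.08) and TEAD4 at 11.7, 13.8 and 12.1 FPKM at 12 h, against 18.7, 21.3 and 19.8 FPKM at 1 h (-0.63 ± 0.08). FRMD6, an upstream regulator, was at 169, 172 and 172 FPKM at 12 h, against 50.8, 58.9 and 59 FPKM at 1 h (1.59 ± 0.06, adjusted p = 4.0e-11). With CCN2, DLC1 and AMOTL1 it made up the 4 that rose.

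Among 17 tested histone deacetylases and sirtuins 3 rose and 4 fell (41.2% called, against 41.0% of all genes tested). HDAC11 (chromosome 3, 13479724 to 13506424, plus strand), the target of FT895, was at 2.31, 3.02 and 2.63 FPKM at 12 h, against 3.47, 3.15 and 3.12 FPKM at 1 h. All 12 h libraries lay below all 1 h libraries, but it was not called (-0.22 ± 0.09, adjusted p = 0.059). It was called without TGFb 12 h replicate 2 (adjusted p = 0.026). SIRT1 was at 5.63, 5.84 and 5.31 FPKM at 12 h, against 7.59, 7.22 and 7.78 FPKM at 1 h (-0.37 ± 0.07, adjusted p = 5.7e-04), SIRT7 changed by -0.41 ± 0.10 and HDAC9 by -0.38 ± 0.12, while HDAC6 (0.34 ± 0.08) and HDAC5 (0.31 ± 0.10) rose. Changes in the whole list ranged from -0.69 to 0.34, and not every member that fell is named here. The calls of HDAC9 and HDAC5 were each lost when single libraries were left out, with adjusted p up to 0.101 and 0.095.

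Ribosomal proteins and the respiratory chain fell as lists when all libraries were used, by amounts that depended on single libraries. Of 75 ribosomal protein genes 33 fell and none rose (median -0.31). The count was 25 (median -0.12) without TGFb 1 h replicate 1, 64 without TGFb 1 h replicate 2, and 16 or 20 when TGFb 12 h replicate 1 or 3 was left out. RPL7 was at 560.3, 581.6 and 562 FPKM at 12 h, against 1081, 646 and 698 FPKM at 1 h (-0.47 ± 0.13, or -0.24 without TGFb 1 h replicate 1) and RPS29 at 46.5, 53.8 and 56.7 FPKM at 12 h, against 132, 54.2 and 69 FPKM at 1 h (-0.59 ± 0.22), and 1 h replicate 2 lay within the 12 h range for RPS29. The RPS29 call was lost without TGFb 1 h replicate 1 or any 1 of the 12 h libraries, with adjusted p up to 0.179. Of 38 nuclear-encoded subunits of the respiratory chain 18 fell and SDHA alone rose (0.34), with a median of -0.28. Without TGFb 1 h replicate 1 it was 11 down with a median of -0.12, and 28 down without TGFb 1 h replicate 2. UQCRB was at 21.3, 25.2 and 26.6 FPKM at 12 h, against 53.6, 26.2 and 30.9 FPKM at 1 h (-0.52 ± 0.18), and its call was lost without TGFb 1 h replicate 1 (adjusted p = 0.071) or TGFb 12 h replicate 1 or 2. Of the 13 mitochondrially encoded transcripts MT-CO3 alone was called (-0.24 ± 0.07, adjusted p = 0.013), and not without TGFb 12 h replicate 1 (adjusted p = 0.053). The part of that library's make-up in these falls was not tested.

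The change also ran along with transcript length. With genes cut into 10 equal groups by length, the median change was -0.20 in the shortest group and 0.11 in the longest, against -0.081 and -0.0042 without TGFb 1 h replicate 1, and -0.15 and -0.054 in the 6 libraries with FT895. Genes that rose had a median coding-gene transcript of 3883 bases and 12 exons over a span of 45.4 kb. Genes that fell had 2556 bases and 8 exons over 26.0 kb, and genes not called had 3126 bases and 9 exons over 34.2 kb. These medians are of calls that include TGFb 1 h replicate 1, and they were not computed without it. Without that library, the share that fell went from 33.1% to 24.96% in the shortest group and from 8.58% to 16.6% in the longest. The part of that library in the contrast of lengths, exons and spans was not tested. COL1A1, LOX, LTBP2 and CDKN2B changed by 3.46, 1.35, 1.61 and 1.86 without TGFb 1 h replicate 1.

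**Figure D4:**
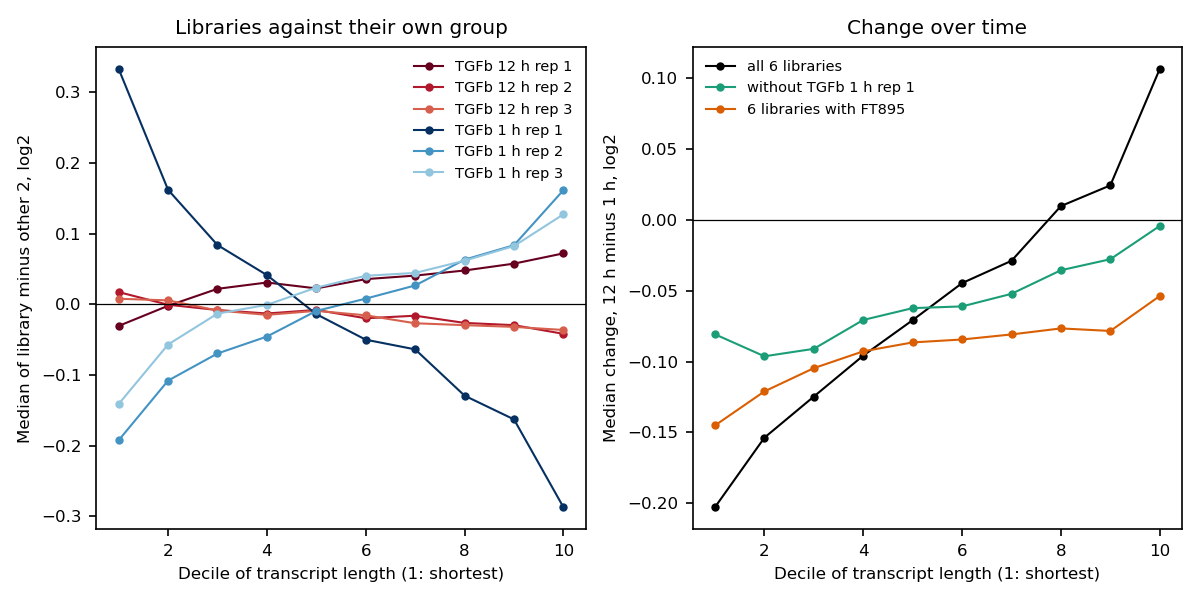
Left, median over genes of each library minus the mean of the other 2 of its group (y axis, log2) by length group (x axis, 10 groups, 1 is the shortest), for the 12 h and 1 h libraries. Right, median change from 1 h to 12 h by the same groups, with all 6 libraries, without TGFb 1 h replicate 1, and in the 6 libraries with FT895. TGFb 1 h replicate 1 lies at 0.33 in the shortest group and -0.29 in the longest, and without it the medians span -0.096 to -0.0042.

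The same step from 1 h to 12 h was available in the 6 libraries that also received FT895, which share no library with the ones above. There 4764 genes were called (38.2%), 1677 up (13.5%) and 3087 down (24.8%). A change of at least 1 was called at 2.49% of genes (1.31% up, 1.19% down), and the groups did not overlap at 55.8%. Of these, 3575 were called in the same direction without FT895, which is 69.9% of the calls without and 75.0% of the calls with the inhibitor, and 9 were called in opposite directions. Of the 300 large changes, 296 were called the same way with FT895. Over genes, which are not independent replicates, the changes correlated at Pearson r = 0.868 and Spearman rho = 0.803. COL1A1 changed by 3.40 with FT895, ID1 by -2.13, AREG by -3.24 and CDKN2B by 1.68. The replication list had 34 of 46 down and the mitosis list 19 of 39 up with FT895. The ribosomal list had 4 of 75 down there.

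The difference between these time courses was tested by the interaction of time and FT895. It was called at 21 genes (0.168%), 18 more positive (0.144%) and 3 more negative (0.0241%) with FT895, of which 6 differed by at least 1 (0.0481%), all more positive, with 978 genes at an unadjusted p under 0.05. Of the 21, 5 belonged to the hypoxia list and 4 to the glycolysis list. DDIT4, which restrains mTORC1 under stress, was not called without FT895 (-0.04 ± 0.06, adjusted p = 0.59), at 99.7, 107 and 99.2 FPKM at 12 h, against 108, 98.9 and 109 FPKM at 1 h. It was at 133, 137 and 151 FPKM at 12 h with FT895, against 66.8, 67.4 and 66.6 FPKM at 1 h with FT895 (difference of the changes 1.10 ± 0.08, adjusted p = 2.7e-05). PFKFB4 was not called without FT895 (0.01) and was at 22.3, 23.3 and 24.3 FPKM at 12 h with FT895, against 11, 11 and 11 FPKM at 1 h with FT895 (1.00 ± 0.09, adjusted p = 4.8e-05). RAB20 fell without FT895, at 4.97, 6.42 and 5.71 FPKM at 12 h, against 10.6, 9.07 and 10.1 FPKM at 1 h, and was at 7.45, 8.21 and 8.48 FPKM at 12 h with FT895, against 6.6, 6.16 and 6.42 FPKM at 1 h with FT895 (1.00 ± 0.12, adjusted p = 0.0015). The hypoxia list as a whole had 5 up and 5 down without FT895 and 14 up and 7 down with it, and the difference of the lists was not tested.

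**Figure D5:**
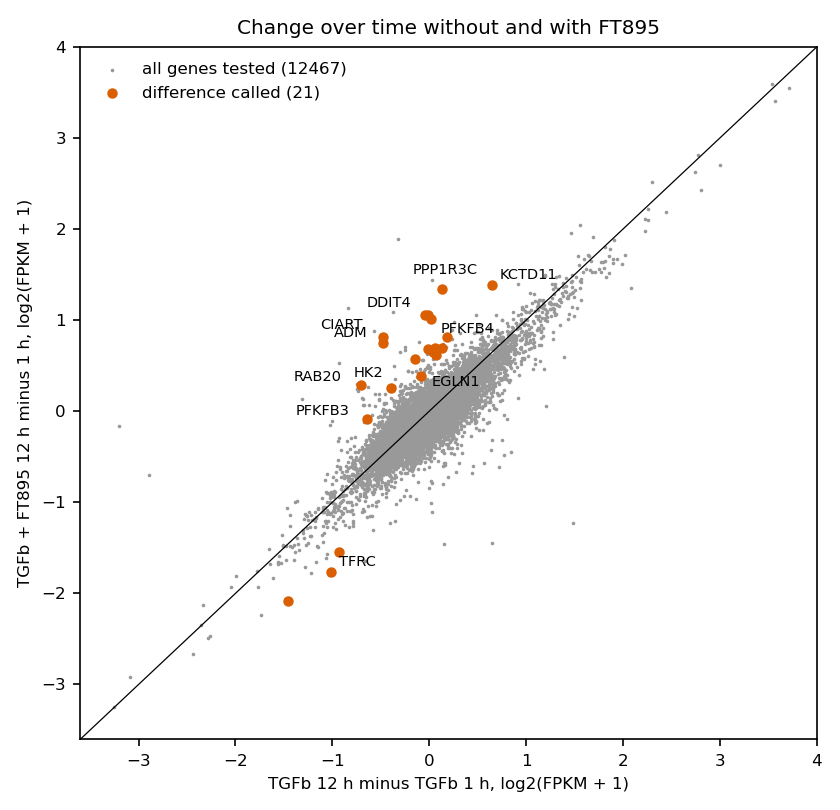
Change from 1 h to 12 h with TGFb and FT895 (y axis) against the change with TGFb alone (x axis), both as differences of log2(FPKM + 1), for 12467 genes; the line marks equal change. Orange points are the 21 genes whose changes differed by the interaction test. The bulk of genes lies along the line, with COL1A1 and the CGB genes at the upper end, and DDIT4, PFKFB4, PPP1R3C, KCTD11 and CIART stand above it.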

How the data were processed

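Per the submitters' processing notes, HISAT2, StringTie and the GRCh38 build were used. Their versions, the annotation and any use of strand are not stated in those notes. The authors deposited FPKM, 1 column per library for 24880 loci (19974 with Ensembl identifiers, all matched to GENCODE release 29, and 4906 unannotated). Symbols were looked up by Ensembl identifier, since 27 in the deposited table are written as dates. Antisense or paralog reads cannot be separated. Read depth is unknown: among loci under 0.1 FPKM in both libraries of a pair, at most 1.59 to 2.76% of log2 ratios fell within any interval of 0.02, so no read unit was found and no counting interval is given.

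Loci that reached 1 FPKM in 3 or more of the 15 libraries were analysed as log2(FPKM + 1), which understates fold changes of low genes. One limma 3.58.1 model (R 4.3.3; a mean per group, all 15 libraries, eBayes with trend, 10 residual degrees of freedom, two-sided, Benjamini-Hochberg over 12467 genes) gave all comparisons, after a check on simulated data. Exact permutation of 3 against 3 cannot pass 0.05 and was not used. Coordinates are those of GENCODE on GRCh38; promoters are RefSeq's (GRCh38.p14), matched by symbol for 9419 of 11536 annotated genes.

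The members, the 44 gene lists (the 40 in the plot of lists, and markers of 4 other cell types) and the tests were chosen with earlier results of these data known. Named genes are 19 landmarks, the 12 largest rises and falls with non-overlapping groups and a mean of 5 FPKM or more at the higher time, the 5 called members with the greatest change in each list (fewer where fewer were called), and up to 8 genes of smallest p in the interaction. Other members were named after their values were seen, where a count was small or a family was described. Some genes that the rule names are not reported here. The alternatives were the pseudocount, filters, scaling, samples in the fit, library weights, a replicate block and leaving out libraries.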

Additional observations from a re-analysis of the deposited data

Results flagged for a closer look

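The change from 1 h to 12 h differed with and without FT895, by the interaction test, at 21 of 12467 genes (0.168%). Of these, 13 are given here. Most of them were picked by their p or sign in this same test, so their number is not a result. The values are the change with FT895 minus the change without it, on the log2(FPKM + 1) scale. They compare 12 libraries, 3 in each group, and the spread behind their p-values is that of all 15 libraries. CIART, a repressor of the circadian clock, had the largest difference of these at 1.29 (its change was 0.81 with FT895 and -0.48 without it), then ADM, adrenomedullin, at 1.22, and PPP1R3C, a glycogen-targeting phosphatase subunit, at 1.21. DDIT4 stood at 1.1, PFKFB4 at 1.0, RAB20 at 1.0 and KCTD11 at 0.74. HK2, hexokinase 2, was at 0.66 (adjusted p = 0.046) and PFKFB3 at 0.56 (adjusted p = 0.0356), both near the threshold of 0.05. EGLN1, an oxygen-sensing prolyl hydroxylase, was at 0.47 (adjusted p = 0.0103).

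TFRC, the transferrin receptor, differed in the other direction at -0.75. It was at 98, 83.8 and 83.5 FPKM at 12 h, against 175, 178 and 185 FPKM at 1 h, and at 61.9, 66.4 and 66.2 FPKM at 12 h with FT895, against 233, 237 and 201 FPKM at 1 h with FT895. CYP1B1 at -0.63 and SHISA2 at -0.61 were the others with a more negative change, and were named after their values were seen. Both were near the threshold in the interaction test (adjusted p = 0.0356 and 0.0465). CYP1B1, a cytochrome of the aryl hydrocarbon receptor battery, was at 2.23, 2.46 and 2.46 FPKM at 12 h, against 7.67, 8.85 and 8.31 FPKM at 1 h, and at 1.5, 1.31 and 1.42 FPKM at 12 h with FT895, against 8.81, 8.64 and 10.4 FPKM at 1 h with FT895.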

How the results depend on the processing

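Of 225 named genes tested, 199 kept their side of the threshold under every alternative run, 23 lost the call under at least 1 and 3 gained one. No called change turned its sign, but changes near 0 that were not called did, such as those of DDIT4 and PFKFB4. Calls were lost most often when the fit held only the 6 libraries of the comparison (22 genes). That fit, with fewer residual degrees of freedom, called 3188 genes in place of 5113 (1383 up, 1805 down). Leaving out 1 library gave 4369 to 5310 calls (1688 to 2160 up, 2483 to 3150 down). With FT895 it gave 3905 to 4187 (1414 to 1472 up, 2491 to 2716 down), and median-of-ratios scaling gave 1944 down with FT895. The interaction was called at 8 to 28 genes when 1 library was left out (7 to 23 up, 1 to 5 down) and at 11 with only the 12 libraries that received TGFb (10 up, 1 down). Median-of-ratios scaling, quantile normalization and the replicate block left 1 gene with a more negative change. The cause was not tested. Rises made up 41.1% of calls, 47.2% after quantile normalization and 51.3% after scaling by median of ratios. The list median turned its sign in 8 of 44 lists after quantile normalization and in 6 of these after median-of-ratios scaling (keratin and junction, interferon, hypoxia, heat shock, mitochondrially encoded and leukocyte lists in both, tubular injury and NF-kB after quantile normalization alone).

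The labels do not say whether replicate numbers pair the libraries, and the main fit did not treat them as pairs. Deviations of same-numbered libraries from their group means correlated between 1 h and 12 h at 0.020, -0.022 and 0.027. Such values cannot settle whether the libraries were paired. With the replicate block 4973 genes were called, 4670 with FT895 and 15 in the interaction. Depth is unknown, so what it limits at low FPKM cannot be stated.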

Other observations

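Markers of other cell types that changed did so in both directions. CSF1R, the receptor of macrophage colony-stimulating factor (chromosome 5, 150053291 to 150113372, minus strand), was at 2.63, 2.63 and 2.67 FPKM at 12 h, against 0.174, 0.194 and 0.120 FPKM at 1 h (1.65 ± 0.08, adjusted p = 1.1e-09), and at 0.151 ± 0.0395 FPKM in mock. Every 12 h library lay far above every 1 h library, and the change with FT895 was 1.70. Other leukocyte markers did not accompany it: PTPRC reached at most 0.0141 FPKM and CD3E and AIF1 were listed at 0. CD68 fell (-0.35) and CD74 was not called (-0.04). PODXL, a sialomucin of podocytes, was at 2.76, 2.57 and 2.8 FPKM at 12 h, against 1.08, 0.925 and 0.674 FPKM at 1 h (0.97 ± 0.10, adjusted p = 2.0e-06), while NPHS1 was listed at 0. Of the other two tested genes in the distal nephron and podocyte list, SYNPO rose (0.46, or 0.30 without TGFb 1 h replicate 1) and SCNN1A, a sodium channel subunit of the collecting duct, fell (-0.72). ESAM, an endothelial adhesion molecule, was at 3.36, 3.57 and 2.82 FPKM at 12 h, against 2.01, 1.75 and 1.63 FPKM at 1 h (0.60 ± 0.11), while VWF, KDR and FLT1 were listed at 0. PDGFRB, a pericyte receptor, stayed under the filter, at 0.575 ± 0.0911 FPKM at 12 h, against 0.0431 ± 0.0388 FPKM at 1 h. Of the 4 fibroblast and pericyte genes tested (median -0.20), NOTCH3 rose (0.60), LUM fell (-0.43, with adjusted p = 0.14 without TGFb 1 h replicate 1), and RGS5 (-0.24) and MCAM (-0.17) were not called.

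Unannotated loci assembled by the authors' pipeline leaned upward. Of 931 tested, 221 rose (23.7%) and 84 fell (9.02%), against 16.3% up and 25.4% down among 11535 protein-coding genes. An AU-rich nonamer in the 3' UTR, a letter pattern of short-lived transcripts, was counted in the annotated genes. It was present in 13 of 109 annotated genes that fell by at least 1 (11.9%) and in 7 of 169 that rose by at least 1 (4.14%), against 8.17% of all. Per kilobase of 3' UTR this was 0.115 and 0.0292, against 0.0671. Over all called genes the order was the other way, with the nonamer in 181 of 2929 that fell (6.18%, 0.063 per kilobase) and in 181 of 1879 that rose (9.63%, 0.0714 per kilobase). These shares are descriptions without a test.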
